A study of Mus musculus with 16 samples.

Results

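The surface ectoderm of the distal mouse forelimb bud was followed over 3 days of development, from E9.5 to E12.5 (days of embryonic age). This was done by setting its 2 RNA-seq libraries of E12.5 against its 2 libraries of E9.5. These 4 libraries were taken by their labels from 16 in all, which hold ectoderm and mesoderm at 4 stages a day apart, with 2 libraries in each of 8 groups. Every group came from B6 embryos, and the labels name no mutation, transgene or treatment for any of them. The sample was the outermost 150 microns of the forelimb, from which the ectoderm was lifted with forceps after cold trypsin. Polyadenylated RNA was sequenced with a stranded kit. The labels call the replicates biological, and the ectoderm and mesoderm libraries with the same stage and number share a batch of embryos. The number of embryos in a library was not given in the sources used here. The slice had the same depth at every stage, so a change with age and a change in which part of the growing bud was sampled cannot be told apart. The replicates differ in the RNA kit (RNeasy Plus Mini for replicate 1 and RNeasy Mini for replicate 2 at every stage). The replicate number was therefore a term of every fit.

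The early limb ectoderm is a simple epithelium that carries keratins 8 and 18. Under the control of the transcription factor p63 it turns into a layered epidermis. Its basal cells make keratins 5 and 14 and hold to the basement membrane by hemidesmosomes. Neighbouring cells are joined by desmosomes, and a transient outer layer, the periderm, covers the surface. At the tip of the bud the ectoderm forms the apical ridge, which feeds FGF, WNT and BMP signals to the mesoderm below. The title of the series names Hoxc genes in ectoderm-derived teguments (skin, hair and nails), so the Hox clusters are described first and the epidermal genes after them.

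The ectoderm libraries carried 10005867 to 24156846 gene counts. Those of E9.5 carried 10005867 and 16873358 and those of E12.5 22979717 and 14623396 (replicate 1, then replicate 2, as in all pairs of values below). Trp63, which encodes p63, stood at 546 and 555 CPM at E9.5 and 657 and 744 CPM at E12.5, where CPM are counts per 1000000 counts of the library after scaling for composition. Cdh1, the epithelial cadherin, stood at 471 and 371 CPM at E9.5 and 437 and 394 CPM at E12.5. Neither was called changed, and both were at 0.305 to 9.71 CPM in the 8 mesoderm libraries. Among markers of other cell types, more were called lower at E12.5 than higher in the mesenchyme, endothelial and erythroid lists. The 25 limb mesenchyme markers summed to 1868 and 1177 CPM at E9.5 and 1643 and 1428 CPM at E12.5 in ectoderm (mesoderm 3681 to 11724 CPM), with 3 called higher and 11 lower. Without the replicate block 5 were called lower. When 1 library was left out it was 6 (E9.5 replicate 1), 4 (E9.5 replicate 2), 3 (E12.5 replicate 1) or 9 (E12.5 replicate 2). The 18 endothelial markers summed to 59.0 and 36.4 CPM at E9.5 and 28.4 and 15.7 CPM at E12.5 (mesoderm 527 to 990.2 CPM), with 0 called higher and 7 lower (3 lower without the replicate block, 4 without E9.5 replicate 1 and 3 without E12.5 replicate 1). The erythroid markers summed to 101.7 and 769 CPM at E9.5 and 47.9 and 13.8 CPM at E12.5, so that replicate 2 of E9.5 stood apart. Of 14 tested, 11 were called lower (2 without that library). The muscle cell markers summed to 14.7 and 15.3 CPM at E9.5 and 0.640 and 0.989 CPM at E12.5, and the macrophage markers to 2.22 and 2.90 CPM at E9.5 and 6.86 and 5.47 CPM at E12.5. In bulk tissue, fewer cells of a type and less RNA per cell cannot be told apart.

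Of 15501 genes with enough counts to test, 5480 (35.4 percent) differed between E12.5 and E9.5 at an adjusted p under 0.05 in edgeR's quasi-likelihood test. The adjusted p is that of Benjamini and Hochberg over all 15501 genes, here and below unless another is named. Where leaving out 1 library moved the fold of a gene by over 1.5 times, the value without that library follows it. For a gene with 0 to 3 counts at 1 stage, the ratio (with its 95 percent counting interval) or the bound was taken again from the libraries left. Of the 5480 genes, 2766 (17.8 percent) were higher at E12.5 and 2714 (17.5 percent) lower. The median log2 fold change over all tested genes was -0.0024. Without the replicate block the test called 2495 genes, 2494 of them among the 5480. Leaving out 1 ectoderm library of either stage left 3273 (without E9.5 replicate 2), 3508 (without E12.5 replicate 1), 3701 (without E12.5 replicate 2) or 3776 (without E9.5 replicate 1). A test against a 2-fold change, which asks for more than a difference from 0, called 1245 genes (8.03 percent), 732 higher (4.72 percent) and 513 lower (3.31 percent). It called 782 without E9.5 replicate 2 and 807 without E12.5 replicate 1. The libraries of both stages did not overlap in 53.4 percent of the tested genes.

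The larger changes were spread over the 3 days. Of the 732 genes that rose beyond 2-fold, 529 (72.3 percent) were higher at each stage than at the stage before it in the group means. At E10.5 and E11.5 the median gene of these had gone through 55.6 and 78.5 percent of its change on the log2 scale of CPM plus 0.1. Of the 513 that fell beyond 2-fold, 321 (62.6 percent) were lower at each stage than before, with medians of 44.3 and 68.6 percent. Where a list below has 0 members called in a direction, 0 reached an unadjusted p under 0.05 in that direction and DESeq2 called 0, except that 2 TALE genes reached such a p on the higher side. Gene lists that cover the epidermis, the Hox clusters, signalling pathways and metabolism are plotted against all genes, and the text takes them in turn. Each count of called members stands against the 17.8 percent of all tested genes called higher and the 17.5 percent called lower.

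**Figure D1:**
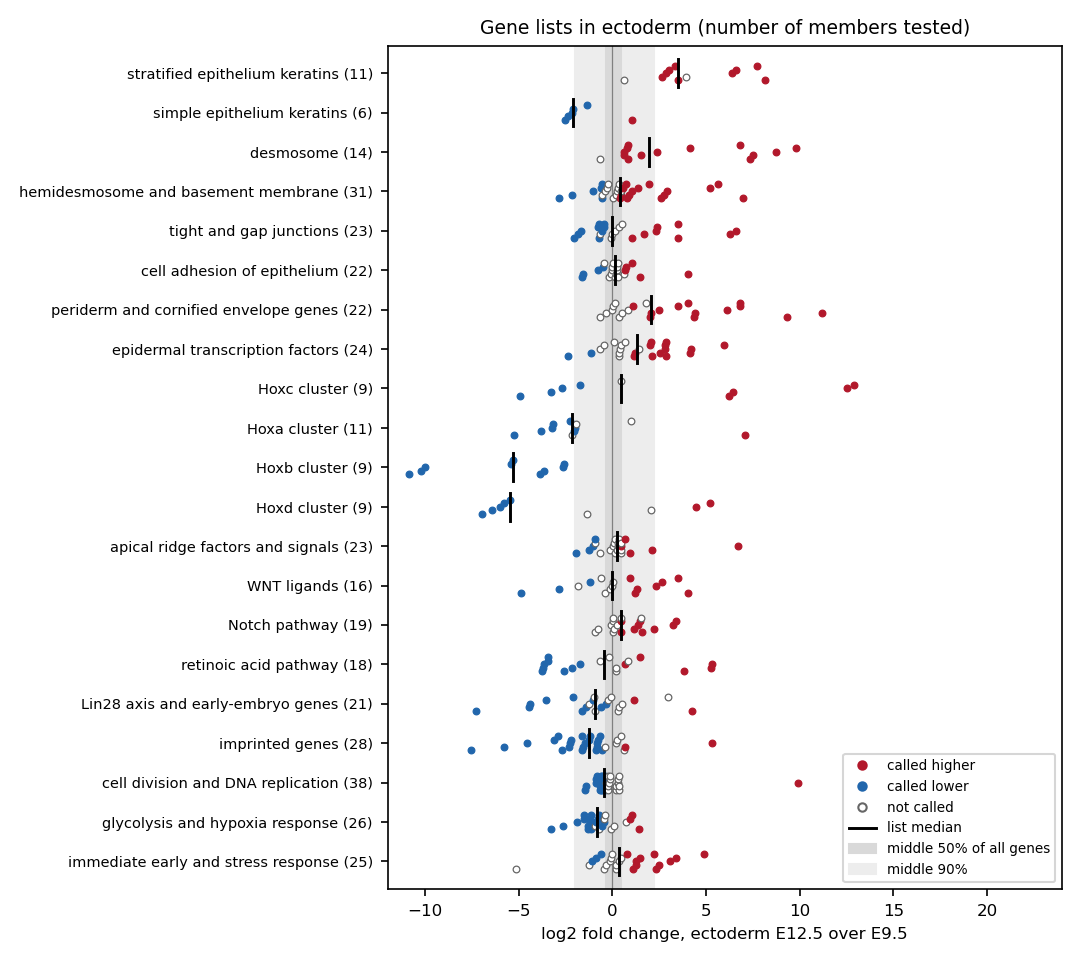
Log2 fold change in ectoderm, E12.5 over E9.5, for the tested members of 21 gene lists (1 point per gene, filled where the gene was called at an adjusted p under 0.05). The median of each list is a black bar, and the middle 50 and 90 percent of all 15501 tested genes are grey bands. The medians of the stratified keratins (3.52), the desmosome genes (1.97) and the periderm genes (2.04) lie right of 0, and those of the Hoxb (-5.31) and Hoxd (-5.48) clusters far left.

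Among genes past the 2-fold test with at least 10 CPM, the 12 with the largest rise were Hoxc12, Hoxc11, Gabrp, Krt35, Dsg3, Anxa1, Ambn, Otx1, Krt6a, Tbx1, Fbln5 and Dsc3. Gabrp, a GABA-A receptor subunit made in many epithelia, stood at 0.316 and 0 CPM at E9.5 and 286 and 269 CPM at E12.5 (ratio of E12.5 to E9.5 CPM 2421 with a 95 percent counting interval of 828 to 11742, or at least 1540.3-fold without E9.5 replicate 1 and a ratio of 881 (301 to 4272) without E9.5 replicate 2, adjusted p = 1.7e-07). Anxa1, a calcium-dependent membrane-binding protein of the cornified envelope, went from 0 and 0.181 to 93.9 and 63.3 CPM (ratio of E12.5 to E9.5 CPM 707 with a 95 percent counting interval of 242 to 3429.5, or a ratio of 449.7 (154 to 2181.9) without E9.5 replicate 1 and at least 257-fold without E9.5 replicate 2, adjusted p = 1.7e-07). Otx1, a homeobox factor best known from the forebrain, was at 0.422 and 0.241 CPM at E9.5 and 116 and 97.3 CPM at E12.5 (log2 fold change 8.36 ± 0.49, adjusted p = 4.1e-07). Tbx1, a T-box factor of ectoderm and pharynx, went from 0.211 and 0.302 to 61.4 and 41.9 CPM (log2 fold change 7.53 ± 0.46, adjusted p = 2.7e-07). Ambn, which encodes the enamel protein ameloblastin, was at 0.211 and 0.181 CPM at E9.5 and 190.5 and 54.3 CPM at E12.5 (log2 fold change 8.99 ± 0.69, or 8.30 without E9.5 replicate 1 and 9.66 without E9.5 replicate 2, adjusted p = 1.4e-06). Its libraries of E12.5 differ by more than 3-fold. Fbln5, an elastic fibre protein, went from 1.37 and 0.241 to 126 and 112 CPM (log2 fold change 7.45 ± 0.50, or 8.62 without E9.5 replicate 1 and 6.73 without E9.5 replicate 2). Krt35, a keratin of hair and nail, was at 0 CPM in both libraries at E9.5 and 22.6 and 6.397 CPM at E12.5, which is at least 139-fold higher, taken against a floor of 3 counts over the group, or at least 88.2-fold without E9.5 replicate 1, at least 50.4-fold without E9.5 replicate 2 and at least 55.6-fold without E12.5 replicate 1, adjusted p = 9.0e-05. In each of the 12 both libraries of E9.5 were below both of E12.5, which the rule for naming them asks.

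By the same rule, the 12 largest falls were those of Cdx1, Hoxb5, Lin28a, Wfikkn1, Prtg, Igdcc3, Cmklr1, Hbb-bh1, Foxj1, Hoxd9, Peg10 and Hoxb9. Cdx1, a caudal-type homeobox factor that acts on Hox genes in the early embryo, was at 33.5 and 29.5 CPM at E9.5 and 0 CPM in both libraries at E12.5 (at least 382-fold lower, taken against a floor of 3 counts over the group, or at least 157-fold without E12.5 replicate 1 and at least 226-fold without E12.5 replicate 2, adjusted p = 3.4e-07). Prtg (protogenin) and Igdcc3 are related immunoglobulin-domain receptors of early embryonic tissue. Prtg went from 301 and 364 to 1.601 and 5.41 CPM (log2 fold change -6.71 ± 0.49, or -7.40 without E12.5 replicate 2). Igdcc3 went from 561 and 398 to 2.70 and 7.12 CPM (-6.68 ± 0.77, or -6.07 without E12.5 replicate 1 and -7.47 without E12.5 replicate 2). Wfikkn1, an extracellular binder of TGF-beta family ligands, was at 36.3 and 35.5 CPM at E9.5 and 0.137 and 0.528 CPM at E12.5 (log2 fold change -6.85 ± 0.49, or -5.99 without E12.5 replicate 1 and -8.04 without E12.5 replicate 2, adjusted p = 7.4e-07). Foxj1, the master factor of motile cilia, fell from 32.4 and 24.9 to 0.274 and 0.528 CPM (log2 fold change -6.19 ± 0.44, or -5.60 without E12.5 replicate 1 and -6.79 without E12.5 replicate 2, adjusted p = 7.2e-07). Cmklr1, the chemerin receptor, went from 26.2 and 25.4 to 0.274 and 0.330 CPM (log2 fold change -6.42 ± 0.37). Hbb-bh1, an embryonic globin, was at 26.6 and 184 CPM at E9.5 and 1.51 and 0.462 CPM at E12.5 (log2 fold change -6.42 ± 0.89, or -7.32 without E9.5 replicate 1 and -4.71 without E9.5 replicate 2 and -7.94 without E12.5 replicate 1 and -5.64 without E12.5 replicate 2), and the erythroid markers were high in the same library, replicate 2 of E9.5. For 7 of the 12 (Cdx1, Hoxb5, Igdcc3, Hbb-bh1, Hoxd9, Peg10 and Hoxb9) the mean CPM at E9.5 was higher in mesoderm than in ectoderm, for example 1227 CPM at E9.5 and 1.89 CPM at E12.5 for Igdcc3 in mesoderm. The summed mesenchyme markers of the ectoderm libraries are given above. The part of mesoderm RNA in these falls was not tested.

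The Hoxc cluster turned over from its 3′ genes to its 5′ genes. Of the 9 Hoxc genes tested, 4 rose and 4 fell, with a median log2 fold change of 0.44. Hoxc10, Hoxc11, Hoxc12 and Hoxc13, which lie at the 5′ end of the cluster and pattern the distal and posterior body, all rose. Hoxc11 was at 0 CPM in both libraries at E9.5 and 52.9 and 34.03 CPM at E12.5 (at least 392-fold higher, taken against a floor of 3 counts over the group, or at least 249.7-fold without E9.5 replicate 1 and at least 143-fold without E9.5 replicate 2, adjusted p = 6.7e-07). Hoxc12 was at 0 CPM in both libraries at E9.5 and 62.0 and 46.2 CPM at E12.5 (at least 482-fold higher, taken against a floor of 3 counts over the group, or at least 307-fold without E9.5 replicate 1 and at least 175-fold without E9.5 replicate 2, adjusted p = 4.6e-07). Hoxc13, a factor needed for hair and nail, was at 0.949 and 1.87 CPM at E9.5 and 124 and 104 CPM at E12.5 (log2 fold change 6.23 ± 0.31, or 6.97 without E9.5 replicate 2, adjusted p = 9.6e-08). Hoxc10 went from 0.527 and 0.422 to 49.2 and 33.6 CPM (log2 fold change 6.42 ± 0.31, adjusted p = 2.6e-07). Group means at the middle stages were 2.93 CPM at E10.5 and 20.98 CPM at E11.5 for Hoxc12 and 34.3 CPM at E10.5 and 59.9 CPM at E11.5 for Hoxc13, so that most of the Hoxc13 rise on the log scale came before E10.5.

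The genes at the 3′ end of the cluster went the other way. Hoxc5 was at 131 and 128 CPM at E9.5 and 2.15 and 7.19 CPM at E12.5 (log2 fold change -4.92 ± 0.42, or -4.31 without E12.5 replicate 1 and -5.79 without E12.5 replicate 2, adjusted p = 3.3e-06). Hoxc8 was at 79.5 and 70.3 CPM at E9.5 and 4.99 and 11.54 CPM at E12.5 (log2 fold change -3.25 ± 0.36, or -3.85 without E12.5 replicate 2, adjusted p = 4.7e-05). Hoxc6 went from 63.6 and 55.4 to 6.405 and 12.46 CPM (-2.69 ± 0.35) and Hoxc4 from 27.7 and 26.5 to 5.31 and 11.7 CPM (-1.74 ± 0.31). Hoxc9, which sits between the groups, was at 16.04 and 13.3 CPM at E9.5 and 20.3 and 19.5 CPM at E12.5 and was not called (adjusted p = 0.25, and 0.043 in a fit of the 4 libraries alone). In mesoderm no mean of a Hoxc gene exceeded 2.22 CPM after E9.5. Hoxc4, Hoxc5, Hoxc6, Hoxc8 and Hoxc9 fell there. The change in ectoderm was less negative in all 5 by the test of the layer difference (the change in ectoderm minus the change in mesoderm), for example by 6.03 ± 1.26, adjusted p = 0.0045 for Hoxc5 and 7.91 ± 1.14, adjusted p = 5.7e-04 for Hoxc9 on the log2 scale. Hoxc10 to Hoxc13 reached at most 1.15 CPM in any mesoderm library. Hoxc10, Hoxc11 and Hoxc12 had no mesoderm counts at E9.5, and no layer difference is given for them. The counts are not stated to use strand, so reads of a Hox gene and of an antisense transcript over it cannot be told apart.

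**Figure D2:**
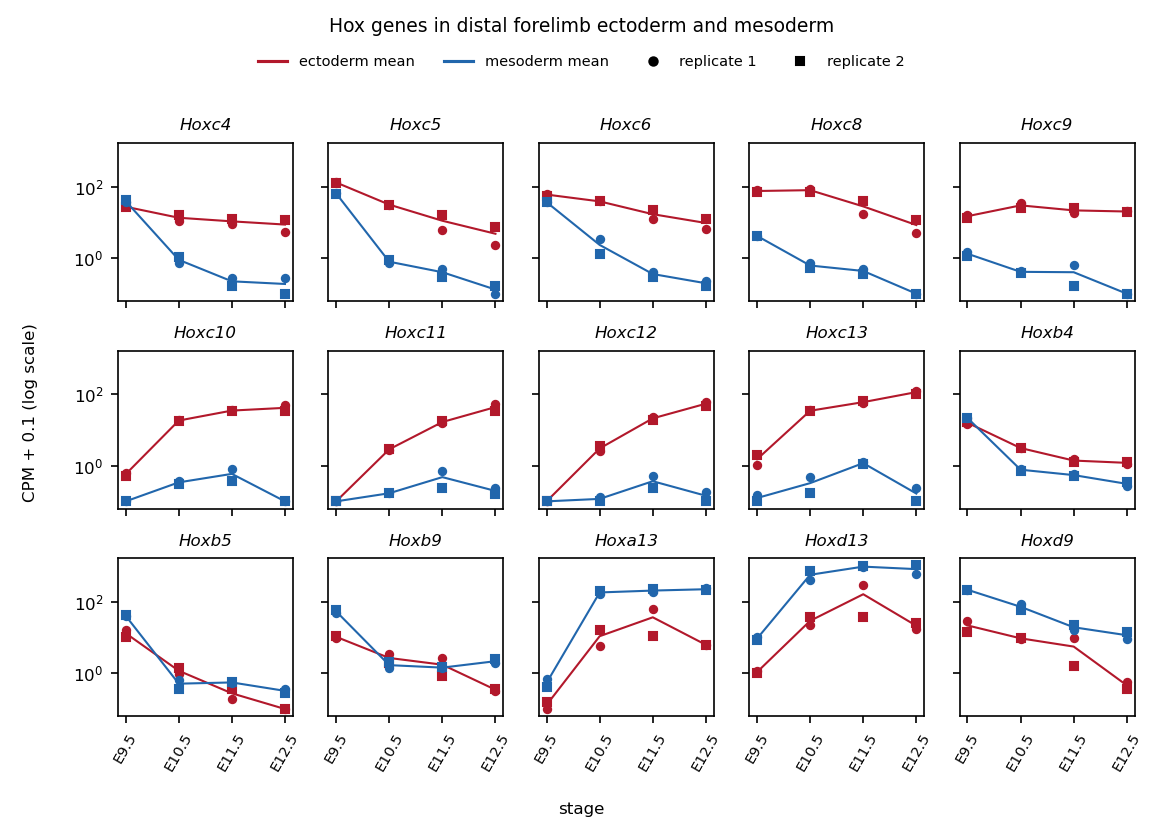
CPM plus 0.1 (log axis) of 15 Hox genes at each of the 4 stages in ectoderm (red) and mesoderm (blue), with 1 point per library (circle, replicate 1, square, replicate 2) and a line through the group means. Hoxc10 to Hoxc13 rise in ectoderm and stay under 2 CPM in mesoderm, Hoxb4 and Hoxb5 fall in both layers, and Hoxa13 and Hoxd13 are higher in mesoderm at every stage.

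In the other clusters most of the called genes fell. Of the 9 Hoxb genes tested, 0 rose and 9 fell, with a median log2 fold change of -5.31, and every Hoxb gene tested was called lower. Hoxb5 was at 16.1 and 10.1 CPM at E9.5 and 0 CPM in both libraries at E12.5 (at least 152-fold lower, taken against a floor of 3 counts over the group, or at least 62.3-fold without E12.5 replicate 1 and at least 89.8-fold without E12.5 replicate 2, adjusted p = 7.2e-07). Hoxb2 had the smallest log2 fold change of the cluster and went from 32.0 and 27.2 to 5.99 and 3.69 CPM (-2.595 ± 0.33). Of the 11 Hoxa genes tested, 1 rose and 7 fell (0 and 6 without E9.5 replicate 1, 0 and 7 without E9.5 replicate 2), with a median log2 fold change of -2.16. Hoxa5 fell from 6.86 and 6.09 to 0.0457 and 0.330 CPM (-5.24 ± 0.95, or -4.61 without E12.5 replicate 1 and -6.59 without E12.5 replicate 2). Hoxa13, the most 5′ gene, rose. Of the 9 Hoxd genes tested, 2 rose and 5 fell (1 and 5 without E9.5 replicate 1, 0 and 5 without E9.5 replicate 2, 1 and 5 without E12.5 replicate 2), with a median log2 fold change of -5.48. Hoxd9 fell from 29.8 and 13.9 to 0.457 and 0.264 CPM (-5.80 ± 0.77) and Hoxd4 from 4.96 and 9.35 to 0 and 0.132 CPM (ratio of E9.5 to E12.5 CPM 144 with a 95 percent counting interval of 39.2 to 1193, or a ratio of 91.8 (24.03 to 780.1) without E9.5 replicate 2, a ratio of 58.8 (16.1 to 489) without E12.5 replicate 1 and at least 56.5-fold without E12.5 replicate 2, adjusted p = 6.1e-05). Hoxd12 and Hoxd13 rose. Hoxa9 lost its call without E9.5 replicate 1 (0.15), without E12.5 replicate 1 (0.14) and without E12.5 replicate 2 (0.054). Hoxa13 lost its call without E9.5 replicate 1 (0.051) and without E9.5 replicate 2 (0.084). Hoxd12 lost its call without E9.5 replicate 1 (0.072), without E9.5 replicate 2 (0.14) and without E12.5 replicate 2 (0.056). Hoxd13 lost its call without E9.5 replicate 2 (0.079). Hoxa13 was at 0 and 0.0603 CPM at E9.5 and 6.22 and 6.13 CPM at E12.5 in ectoderm, with means of 0.440 CPM at E9.5 and 226 CPM at E12.5 in mesoderm. Hoxd13 was at 1.05 and 0.905 CPM at E9.5 and 17.4 and 25.2 CPM at E12.5 in ectoderm, with means of 9.24 CPM at E9.5 and 825 CPM at E12.5 in mesoderm. In ectoderm both had their highest mean at E11.5 (36.9 CPM for Hoxa13 and 163 CPM for Hoxd13), where replicate 1 was high (288 CPM of Hoxd13 against 38.3 CPM in replicate 2). The part of mesoderm RNA in these ectoderm values was not tested.

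The TALE homeobox factors bind DNA together with Hox proteins. Of the 10 TALE genes tested, 0 rose and 3 fell (0 and 1 without the replicate block, 0 and 1 without E9.5 replicate 1, 0 and 1 without E12.5 replicate 2), with a median log2 fold change of -0.14, where 35.4 percent of all tested genes were called. Meis1 fell from 131 and 178 to 56.9 and 72.6 CPM (log2 fold change -1.25 ± 0.20, adjusted p = 4.2e-04). Meis2 fell from 233 and 229.7 to 156 and 154 CPM (log2 fold change -0.58 ± 0.14). Meis2 lost its call without the replicate block (adjusted p = 0.052), without E9.5 replicate 1 (0.057) and without E12.5 replicate 2 (0.062). Pbx2 lost its call without the replicate block (adjusted p = 0.29), without any 1 of the 4 libraries (0.12 to 0.19), with RLE size factors (adjusted p = 0.059) and without E11.5 replicate 1 (adjusted p = 0.054).

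Most keratins of simple epithelium fell, and most keratins of stratified epithelium rose. Of the 6 simple keratins tested, 1 rose and 5 fell (0 and 4 without the replicate block), with a median log2 fold change of -2.13. Krt8 was at 191 and 136 CPM at E9.5 and 34.3 and 42.2 CPM at E12.5 (log2 fold change -2.08 ± 0.40, adjusted p = 0.0017). Its partner Krt18 was at 157 and 128 CPM at E9.5 and 56.9 and 55.6 CPM at E12.5 (log2 fold change -1.33 ± 0.27, adjusted p = 0.0024). Krt19 went from 119 and 96.6 to 29.1 and 13.6 CPM (-2.36 ± 0.32) and Krt23 from 17.1 and 16.6 to 3.75 and 2.18 CPM (-2.53 ± 0.48). Krt7 was the exception and rose from 70.7 and 63.4 to 153 and 128 CPM (1.07 ± 0.21). Krt7 lost its call without the replicate block (adjusted p = 0.077). Krt20 lost its call without the replicate block (adjusted p = 0.074), without E9.5 replicate 2 (0.19), without E12.5 replicate 1 (0.089), without E12.5 replicate 2 (0.13) and under DESeq2 (adjusted p = 0.10). Of the 11 stratified keratins tested, 9 rose and 0 fell, with a median log2 fold change of 3.52, and 7 more had too few counts to test. Krt14, the basal type I keratin, was at 13.5 and 14.96 CPM at E9.5 and 1633 and 925 CPM at E12.5 (log2 fold change 6.38 ± 0.45, adjusted p = 7.3e-07). Its partner Krt5 was at 343 and 211 CPM at E9.5 and 2982 and 1592 CPM at E12.5 (log2 fold change 3.01 ± 0.40, adjusted p = 1.2e-04). Krt17, a keratin of skin appendages and activated epidermis, went from 5.06 and 3.56 to 533 and 314 CPM (log2 fold change 6.60 ± 0.46, adjusted p = 7.2e-07). Krt6a was at 0 and 0.0603 CPM at E9.5 and 15.7 and 5.28 CPM at E12.5 (ratio of E12.5 to E9.5 CPM 298 with a 95 percent counting interval of 53.3 to 11814, or a ratio of 189.9 (33.9 to 7516) without E9.5 replicate 1, at least 36.2-fold without E9.5 replicate 2 and a ratio of 137 (23.98 to 5497) without E12.5 replicate 1, adjusted p = 1.5e-04). Krt2, a late suprabasal keratin, was at 0 CPM in both libraries at E9.5 and 1.78 and 2.24 CPM at E12.5 (at least 17.1-fold higher, taken against a floor of 3 counts over the group, or at least 10.9-fold without E9.5 replicate 1 and at least 6.23-fold without E9.5 replicate 2, adjusted p = 0.0032). In these 5 keratins replicate 1 of E12.5 was above replicate 2 except in Krt2, and no library of E9.5 reached either. On the deposited FPKM scale, which corrects for transcript length, Krt5 stood at 1043 and 601, Krt14 at 719.6 and 443 and Krt17 at 261 and 166 at E12.5. The order Krt5, Krt14, Krt17 held in both libraries of E12.5.

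Desmosomes, the spot junctions that tie keratin filaments of neighbouring cells together, gained RNA in nearly every member. Of the 14 desmosome genes tested, 13 rose and 0 fell (8 and 0 without the replicate block), with a median log2 fold change of 1.97. Desmoplakin (Dsp), the link to keratin, was at 332 and 272 CPM at E9.5 and 1612 and 1554 CPM at E12.5 (log2 fold change 2.41 ± 0.26, adjusted p = 2.5e-05). The desmosomal cadherins of stratified epithelium came from close to no counts. Dsg3 was at 0 and 0.0603 CPM at E9.5 and 39.1 and 42.6 CPM at E12.5 (ratio of E12.5 to E9.5 CPM 1056 with a 95 percent counting interval of 189 to 41753, or a ratio of 672 (120.4 to 26564) without E9.5 replicate 1 and at least 128-fold without E9.5 replicate 2, adjusted p = 2.6e-07). Dsc3 was at 0.422 and 0.483 CPM at E9.5 and 113 and 46.1 CPM at E12.5 (log2 fold change 7.34 ± 0.75, or 6.61 without E12.5 replicate 1 and 7.95 without E12.5 replicate 2, adjusted p = 1.5e-05). Dsg1a stood at 0 and 0.0603 CPM at E9.5 and 13.6 and 4.88 CPM at E12.5 (ratio of E12.5 to E9.5 CPM 261 with a 95 percent counting interval of 46.6 to 10341, or a ratio of 166 (29.6 to 6579) without E9.5 replicate 1, at least 31.7-fold without E9.5 replicate 2 and a ratio of 127 (22.1 to 5089) without E12.5 replicate 1, adjusted p = 1.8e-04). Dsg1b stood at 0 CPM in both libraries at E9.5 and 4.57 and 2.04 CPM at E12.5 (at least 30.7-fold higher, taken against a floor of 3 counts over the group, or at least 19.6-fold without E9.5 replicate 1, at least 11.2-fold without E9.5 replicate 2 and at least 17.8-fold without E12.5 replicate 1, adjusted p = 0.0014). Dsg1a and Dsg1b are near-identical copies, so the split of reads between them is uncertain. Perp, a tetraspan protein of desmosomes that p63 switches on, went from 354 and 266 to 591 and 462 CPM (0.77 ± 0.22). Plakoglobin (Jup) went from 277 and 229 to 477 and 327 CPM (0.65 ± 0.18). Dsg1b lost its call under DESeq2 (adjusted p = 0.051). Perp lost its call without the replicate block (adjusted p = 0.31), without any 1 of the 4 libraries (0.060 to 0.092) and under DESeq2 (adjusted p = 0.20). Jup lost its call without the replicate block (adjusted p = 0.24), without E9.5 replicate 1 (0.12) and without E12.5 replicate 1 (0.078). Pkp2, the plakophilin best known from heart, was the member not called (10.02 and 9.35 CPM at E9.5 and 6.31 and 6.07 CPM at E12.5, adjusted p = 0.18, and 0.047 in a fit of the 4 libraries alone).

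At the basement membrane, collagens XVII and VII, Lama3 and integrin beta 4 rose, while Lama1, the nidogens and integrin alpha 6 fell. Of the 31 genes tested, 15 rose and 6 fell (8 and 2 without the replicate block, 13 and 2 without E9.5 replicate 1, 12 and 3 without E9.5 replicate 2, 14 and 2 without E12.5 replicate 1), with a median log2 fold change of 0.42. Collagen XVII (Col17a1), the transmembrane collagen of hemidesmosomes, was at 40.2 and 24.1 CPM at E9.5 and 1261 and 1091 CPM at E12.5 (log2 fold change 5.24 ± 0.27, adjusted p = 1.2e-07). Collagen VII (Col7a1), which forms the anchoring fibrils, was at 3.69 and 4.10 CPM at E9.5 and 194 and 179 CPM at E12.5 (log2 fold change 5.63 ± 0.39, adjusted p = 6.4e-07). Lama3, the alpha chain of laminin-332, the laminin that hemidesmosomes bind, went from 1.37 and 0.483 to 119.8 and 92.8 CPM (log2 fold change 6.998 ± 0.66, adjusted p = 7.3e-06). Integrin beta 4 (Itgb4) rose from 24.7 and 17.2 to 172 and 145 CPM (2.94 ± 0.18). Its partner integrin alpha 6 (Itga6) fell from 419.8 and 389 to 249 and 283 CPM (-0.60 ± 0.17). Lama1, the alpha chain of the early embryonic laminin, was at 77.3 and 79.4 CPM at E9.5 and 14.96 and 19.8 CPM at E12.5 (log2 fold change -2.18 ± 0.19, adjusted p = 3.3e-06). Of the laminin-binding nidogens, Nid2 fell from 59.2 and 39.3 to 7.50 and 6.27 CPM (-2.84 ± 0.56) and Nid1 from 42.4 and 23.6 to 17.5 and 13.7 CPM (-1.04 ± 0.33). Lama5 rose from 676 and 667 to 1071 and 1441 CPM (0.90 ± 0.23). Col18a1, the member with the highest CPM, was at 2050.4 and 1526 CPM at E9.5 and 2234 and 1512 CPM at E12.5 and was not called (adjusted p = 0.82). Itga6 lost its call without the replicate block (adjusted p = 0.063), without E9.5 replicate 1 (0.073), without E9.5 replicate 2 (0.068) and without E12.5 replicate 1 (0.15). Nid1 lost its call without the replicate block (adjusted p = 0.17), without any 1 of the 4 libraries (0.066 to 0.17) and in a fit of the ectoderm libraries alone (adjusted p = 0.050). Lama5 lost its call without E9.5 replicate 2 (0.069) and without E12.5 replicate 2 (0.096).

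**Figure D3:**
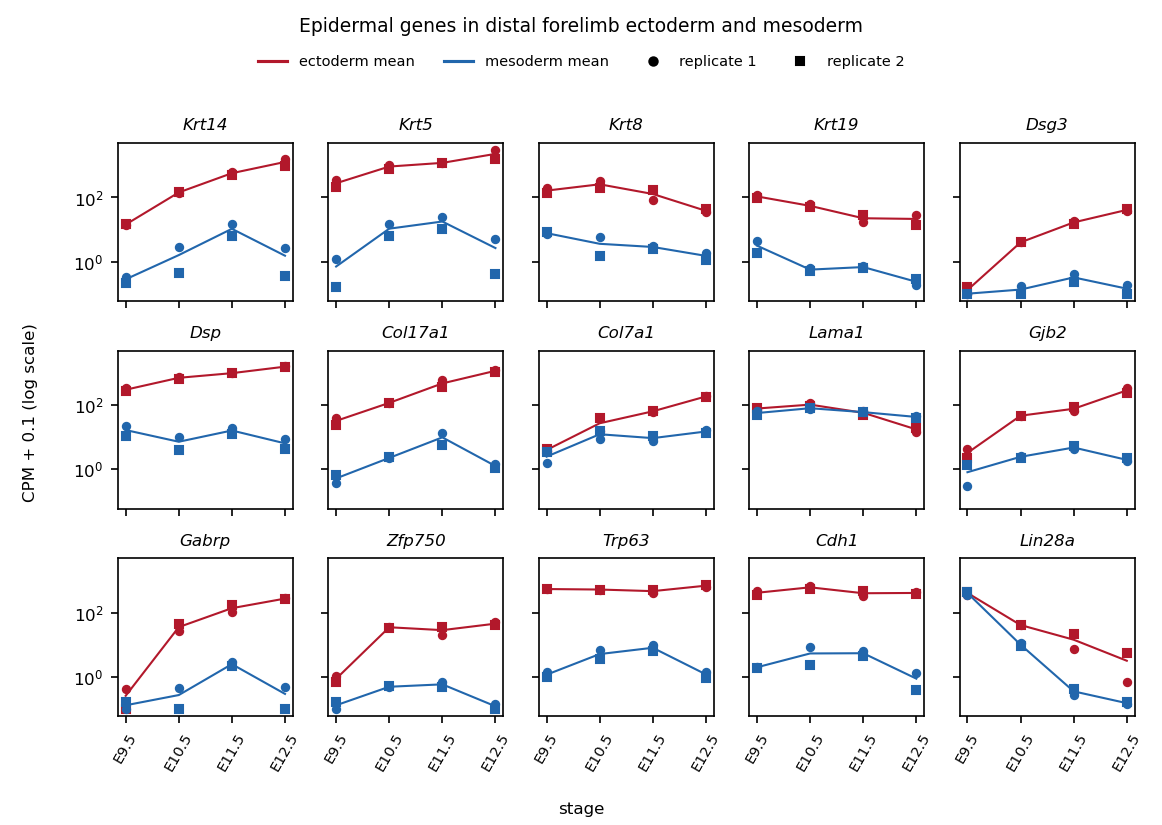
CPM plus 0.1 (log axis) of 14 epidermal genes and Lin28a at each stage in ectoderm (red) and mesoderm (blue), with 1 point per library and a line through the group means. Krt14, Dsg3, Col17a1, Col7a1, Gjb2 and Gabrp rise at each step in the ectoderm means, Krt8 and Krt19 are lowest at E12.5, and Trp63 and Cdh1 have log2 fold changes of 0.35 and -0.01.

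Tight and gap junction genes split. Of the 23 junction genes tested, 8 rose and 9 fell (8 and 3 without the replicate block, 8 and 3 without E9.5 replicate 1, 8 and 5 without E12.5 replicate 1, 8 and 3 without E12.5 replicate 2), with a median log2 fold change of -0.04. Connexin 26 (Gjb2) and connexin 30 (Gjb6) share gap junctions in epidermis and inner ear. Gjb2 was at 4.11 and 2.17 CPM at E9.5 and 339 and 238 CPM at E12.5 (log2 fold change 6.60 ± 0.37, adjusted p = 1.7e-07). Gjb6 was at 1.37 and 0.784 CPM at E9.5 and 95.7 and 64.8 CPM at E12.5 (log2 fold change 6.29 ± 0.42, adjusted p = 9.7e-07). Claudin 1 (Cldn1), the barrier claudin of epidermis, went from 7.07 and 6.21 to 82.3 and 67.8 CPM (log2 fold change 3.503 ± 0.33, adjusted p = 6.8e-06). On the other side, Cldn9 fell from 6.22 and 5.19 to 1.69 and 0.989 CPM (-2.06 ± 0.45) and the scaffold Tjp3 from 49.5 and 44.2 to 11.9 and 14.3 CPM (-1.83 ± 0.30). Gjb5, another connexin, fell from 33.9 and 18.9 to 10.1 and 6.27 CPM (-1.67 ± 0.39). Cldn6, a claudin of embryonic epithelium, fell from 416 and 303 to 241 and 189.5 CPM (-0.73 ± 0.24). Connexin 43 (Gja1), the member with the highest CPM, was at 1015 and 1036 CPM at E9.5 and 1239 and 1382 CPM at E12.5 and was not called (adjusted p = 0.055). It was called under 6 of the alternatives (adjusted p = 0.034 under DESeq2, 0.043 in a fit of the ectoderm libraries alone, 0.048 with RLE size factors, 0.020 without the filter on low counts, 0.038 in a fit of the 4 libraries alone and 0.048 without E11.5 replicate 1). Gjb5 lost its call without the replicate block (adjusted p = 0.081). Cldn6 lost its call without the replicate block (adjusted p = 0.22), without any 1 of the 4 libraries (0.085 to 0.19) and under DESeq2 (adjusted p = 0.19). A list of other epithelial adhesion genes, with the adherens junction among them, also held calls in both directions. Of the 22 adhesion genes tested, 5 rose and 4 fell (3 and 2 without the replicate block, 4 and 2 without E12.5 replicate 1), with a median log2 fold change of 0.16. The called share of the adhesion list was not far from the 35.4 percent of all tested genes (17.8 percent higher and 17.5 percent lower). Nectin4 rose from 10.4 and 6.76 to 150.4 and 127 CPM (log2 fold change 4.05 ± 0.32, adjusted p = 1.8e-06). P-cadherin (Cdh3) rose from 456 and 392 to 713 and 708 CPM (0.76 ± 0.16). N-cadherin (Cdh2), a cadherin of mesenchyme and neural tissue, fell from 91.4 and 63.5 to 15.4 and 34.5 CPM (-1.64 ± 0.30, or -2.40 without E12.5 replicate 2). Cdh3 lost its call without the replicate block (adjusted p = 0.085). Beta-catenin (Ctnnb1) was at 2735 and 2718 CPM at E9.5 and 2998 and 2607 CPM at E12.5 and was not called (adjusted p = 0.83).

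Periderm and cornified envelope genes rose in part, and several of the late barrier had too few counts to test. Of the 22 genes tested, 13 rose and 0 fell, with a median log2 fold change of 2.04, and 13 further members, among them Flg, Ivl and Krtdap, could not be tested. Stratifin (Sfn), a 14-3-3 protein of differentiating epidermis, was at 71.3 and 56.0 CPM at E9.5 and 479.6 and 269 CPM at E12.5 (log2 fold change 2.50 ± 0.23, adjusted p = 6.3e-06). Lypd3, a membrane protein of stratified epithelium, was at 0.633 and 0.0603 CPM at E9.5 and 47.8 and 21.8 CPM at E12.5 (log2 fold change 6.84 ± 0.48, or 8.64 without E9.5 replicate 1 and 5.99 without E9.5 replicate 2, adjusted p = 7.0e-07). S100a14, an S100 calcium-binding protein, was at 0 and 0.0603 CPM at E9.5 and 9.52 and 2.11 CPM at E12.5 (ratio of E12.5 to E9.5 CPM 169 with a 95 percent counting interval of 30.03 to 6699, or a ratio of 107 (19.1 to 4262) without E9.5 replicate 1, at least 20.5-fold without E9.5 replicate 2 and a ratio of 55.0 (9.19 to 2239) without E12.5 replicate 1, adjusted p = 0.0027). Flg, Ivl and Krtdap were named after their values were seen.

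Among epidermal transcription factors, Trp63 itself was not called while 13 of the other factors rose. Of the 24 factors tested, 13 rose and 2 fell, with a median log2 fold change of 1.33. Zfp750, a p63 target that drives terminal differentiation, was at 0.949 and 0.603 CPM at E9.5 and 51.2 and 40.3 CPM at E12.5 (log2 fold change 5.95 ± 0.38, adjusted p = 4.0e-07). Tfap2b, an AP-2 factor, was at 19.3 and 31.4 CPM at E9.5 and 418 and 488 CPM at E12.5 (log2 fold change 4.17 ± 0.34, adjusted p = 2.1e-06). Elf5 went from 0.527 and 0.905 to 4.39 and 6.07 CPM (2.86 ± 0.40) and Pou3f1 from 0.316 and 0.0603 to 4.03 and 2.11 CPM (4.14 ± 0.57, or 4.95 without E9.5 replicate 1). Gata3 fell from 28.1 and 34.2 to 5.76 and 6.13 CPM (log2 fold change -2.38 ± 0.32, adjusted p = 1.4e-04), as did Klf3 from 96.1 and 130.5 to 42.3 and 60.5 CPM (-1.15 ± 0.13). Trp63 had a log2 fold change of 0.35 ± 0.20 (adjusted p = 0.18, and 0.026 in a fit of the ectoderm libraries alone, 0.030 in a fit of the 4 libraries alone and 0.014 with a block for each layer).

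Signals of the apical ridge did not all move in the same direction. Of the 23 ridge genes tested, 5 rose and 4 fell (1 and 2 without the replicate block, 3 and 1 without E9.5 replicate 1, 1 and 3 without E9.5 replicate 2, 1 and 1 without E12.5 replicate 1, 2 and 2 without E12.5 replicate 2), with a median log2 fold change of 0.27. The called share of the ridge list was near the 35.4 percent of all tested genes (17.8 percent higher and 17.5 percent lower). Fgf8, the main ridge FGF, fell from 358 and 194 to 63.6 and 73.9 CPM (log2 fold change -1.94 ± 0.42, adjusted p = 0.0032). Its group means at the middle stages were 1249.8 CPM at E10.5 and 307 CPM at E11.5, so that Fgf8 was highest at E10.5. Fgf9 went up from 8.86 and 7.18 to 29.3 and 39.4 CPM (log2 fold change 2.10 ± 0.58, adjusted p = 0.014). Sp9, a zinc finger factor of the ridge, was at 0.316 and 0.543 CPM at E9.5 and 60.5 and 41.9 CPM at E12.5 (log2 fold change 6.72 ± 0.48, or 7.51 without E9.5 replicate 2, adjusted p = 7.3e-07). Its relative Sp6 fell from 515 and 516 to 301 and 243 CPM (-0.93 ± 0.30). Bmp2 fell from 34.1 and 23.5 to 17.8 and 10.4 CPM (-1.02 ± 0.26). The hyaluronan receptor Cd44, a ridge marker, fell from 103 and 77.6 to 32.3 and 42.3 CPM (-1.26 ± 0.34). Fgf8 lost its call without E12.5 replicate 1 (0.056). Fgf9 lost its call without the replicate block (adjusted p = 0.097), without E9.5 replicate 2 (0.15), without E12.5 replicate 1 (0.052), without E12.5 replicate 2 (0.065) and under DESeq2 (adjusted p = 0.10). Sp6 lost its call without the replicate block (adjusted p = 0.14), without any 1 of the 4 libraries (0.084 to 0.18) and under DESeq2 (adjusted p = 0.14). Bmp2 lost its call without the replicate block (adjusted p = 0.052), without E9.5 replicate 1 (0.095) and without E12.5 replicate 2 (0.11). Cd44 lost its call without E9.5 replicate 1 (0.080) and without E12.5 replicate 1 (0.12). Wnt3 lost its call without the replicate block (adjusted p = 0.077), without E9.5 replicate 1 (0.051), without E9.5 replicate 2 (0.068) and without E12.5 replicate 1 (0.10). Wnt5a was at 469 and 386 CPM at E9.5 and 414 and 464 CPM at E12.5 and was not called (adjusted p = 0.88).

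The WNT ligands and the response genes of the pathway held calls in both directions. Of the 16 ligands tested, 7 rose and 3 fell (5 and 1 without the replicate block, 5 and 1 without E12.5 replicate 1), with a median log2 fold change of 0.01. Wnt7b was at 48.6 and 36.6 CPM at E9.5 and 639 and 372 CPM at E12.5 (log2 fold change 3.53 ± 0.23, adjusted p = 4.5e-07). Wnt10b was at 5.91 and 6.70 CPM at E9.5 and 44.6 and 32.1 CPM at E12.5 (log2 fold change 2.66 ± 0.37, or 2.07 without E12.5 replicate 1, adjusted p = 1.6e-04). Wnt9b rose from 9.92 and 8.32 to 45.3 and 44.6 CPM (2.31 ± 0.31). Wnt3a rose from 0.633 and 0.784 to 20.3 and 7.58 CPM (4.05 ± 0.48, or 3.46 without E9.5 replicate 1 and 4.82 without E9.5 replicate 2). Wnt2b fell from 1.1605 and 0.784 to 0 and 0.0659 CPM (ratio of E9.5 to E12.5 CPM 34.1 with a 95 percent counting interval of 5.56 to 1402, or a ratio of 13.97 (2.28 to 574) without E12.5 replicate 1 and at least 6.71-fold without E12.5 replicate 2, adjusted p = 0.0020). Wnt6, the ligand with the highest CPM at E9.5, was at 482 and 340.5 CPM at E9.5 and 413 and 320.2 CPM at E12.5 and was not called (adjusted p = 0.73). Of the 25 response genes and modulators tested, 7 rose and 8 fell (2 and 6 without the replicate block, 5 and 5 without E9.5 replicate 2, 5 and 4 without E12.5 replicate 1), with a median log2 fold change of -0.13. Of the modulators, the secreted Dkk3 rose from 8.97 and 5.07 to 68.9 and 55.1 CPM (3.19 ± 0.25) and Lgr6, a receptor of R-spondins, from 13.2 and 15.5 to 67.6 and 44.3 CPM (1.95 ± 0.29). The BMP and WNT antagonist Sostdc1 rose from 7.38 and 7.84 to 43.6 and 40.0 CPM (2.43 ± 0.66) and the WNT inhibitor Wif1 from 5.49 and 2.59 to 30.3 and 8.90 CPM (2.203 ± 0.52). Of the nuclear factors, Tcf7 fell from 406 and 399 to 72.8 and 93.1 CPM (log2 fold change -2.29 ± 0.19, adjusted p = 2.7e-06). Sp5, a direct WNT target, fell from 3.27 and 3.44 to 0.229 and 0.0659 CPM (-4.48 ± 0.67, or -5.27 without E12.5 replicate 1). Dkk4, an early placode inhibitor, fell from 4.96 and 3.56 to 0.274 and 0 CPM (log2 fold change -4.76 ± 0.82, or -4.05 without E12.5 replicate 2, adjusted p = 0.0013). Without E12.5 replicate 1 the library of E12.5 that was left had 0 CPM of Dkk4. The fitted value there, -9.06, depends on the prior count and is no estimate of size. Sostdc1 lost its call without the replicate block (adjusted p = 0.066), without E9.5 replicate 1 (0.11), without E9.5 replicate 2 (0.059) and without E12.5 replicate 2 (0.075). Wif1 lost its call without the replicate block (adjusted p = 0.079) and without E12.5 replicate 1 (0.074).

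In the Notch pathway, a cell-contact signal that steers basal cells of the epidermis into differentiation, called genes rose. Of the 19 Notch pathway genes tested, 9 rose and 0 fell (6 and 0 without the replicate block), with a median log2 fold change of 0.46. Over all tested genes 17.8 percent were called higher and 17.5 percent lower. The receptor Notch1 was at 66.3 and 54.9 CPM at E9.5 and 254 and 317 CPM at E12.5 (log2 fold change 2.24 ± 0.26, adjusted p = 4.4e-05). Among the targets, Nrarp, a feedback inhibitor, was at 21.5 and 13.2 CPM at E9.5 and 179 and 139 CPM at E12.5 (log2 fold change 3.22 ± 0.21, adjusted p = 4.6e-07). Heyl, a transcriptional repressor, was at 1.69 and 2.84 CPM at E9.5 and 23.1 and 23.3 CPM at E12.5 (log2 fold change 3.40 ± 0.32, adjusted p = 6.9e-06). Lfng, a glycosyltransferase that tunes the receptor, rose from 18.7 and 16.8 to 58.6 and 47.7 CPM (1.58 ± 0.17). The ligand Jag2 rose from 299 and 333 to 417 and 459.7 CPM (0.47 ± 0.16). Jag2 lost its call without the replicate block (adjusted p = 0.13) and without any 1 of the 4 libraries (0.097 to 0.18). In mesoderm, 8 of the list rose and 2 fell, with a median of 0.45, where 7987 of all 15501 tested genes were called. The layer difference was called in 3 genes as more positive in ectoderm and in 2 as more negative. Both called shares were near those of all tested genes, of which 23.1 percent had a called layer difference. In mesoderm, Notch1 had a log2 fold change of 0.31 ± 0.26 and Nrarp of 0.58 ± 0.22. The layers differed by 1.94 ± 0.36, adjusted p = 0.0025 for Notch1 and 2.64 ± 0.30, adjusted p = 9.4e-05 for Nrarp.

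Of the 19 BMP genes tested, 5 rose and 2 fell (3 and 1 without the replicate block, 3 and 1 without E9.5 replicate 1, 5 and 1 without E9.5 replicate 2, 3 and 1 without E12.5 replicate 1, 5 and 1 without E12.5 replicate 2), with a median log2 fold change of 0.34. Over all tested genes 35.4 percent were called (17.8 percent higher and 17.5 percent lower), and the called share of the BMP list was near that. Id4, an inhibitor of basic helix-loop-helix factors, rose from 4.01 and 4.95 to 12.8 and 12.9 CPM (1.53 ± 0.34) and the receptor Bmpr2 from 72.4 and 89.8 to 152 and 184 CPM (1.05 ± 0.14). The antagonist Nog rose from 0.105 and 0.0603 to 2.10 and 0.659 CPM (ratio of E12.5 to E9.5 CPM 19.7 with a 95 percent counting interval of 5.21 to 167, or a ratio of 8.59 (1.83 to 80.6) without E12.5 replicate 1, adjusted p = 0.0019). Id2 fell from 155 and 184 to 80.2 and 64.3 CPM (-1.24 ± 0.15). Of the 17 FGF genes tested, 2 rose and 4 fell (2 and 2 without the replicate block, 2 and 2 without E9.5 replicate 1, 2 and 2 without E12.5 replicate 1), with a median log2 fold change of 0.07. The called share of the FGF list was also near the 35.4 percent of all tested genes. The receptor Fgfr3 rose from 3.38 and 6.64 to 19.8 and 30.5 CPM (2.35 ± 0.31). Fgfbp1, a secreted FGF carrier, rose from 0.211 and 0.0603 to 11.7 and 6.99 CPM (ratio of E12.5 to E9.5 CPM 84.7 with a 95 percent counting interval of 28.7 to 413, or a ratio of 162 (28.8 to 6402) without E9.5 replicate 1 and a ratio of 46.2 (12.7 to 383) without E9.5 replicate 2, adjusted p = 1.5e-05). Il17rd, an FGF feedback inhibitor, fell from 128 and 113 to 51.2 and 57.1 CPM (-1.158 ± 0.17). Etv5 was at 186 CPM in both libraries at E9.5 and 193 and 147 CPM at E12.5 and was not called (adjusted p = 0.57). Of the 20 ectodysplasin and appendage placode genes tested, 6 rose and 4 fell (3 and 4 without the replicate block, 5 and 2 without E12.5 replicate 1), with a median log2 fold change of -0.12. These counts, too, stand against 35.4 percent called over all tested genes. The ligand Eda rose from 4.11 and 4.58 to 11.99 and 8.77 CPM (1.23 ± 0.25) and the factor Sox21 from 0.844 and 0.483 to 10.3 and 6.33 CPM (3.64 ± 0.37). The receptor Eda2r fell from 8.23 and 9.65 to 1.97 and 1.98 CPM (-2.15 ± 0.36) and the factor Sox9 from 68.3 and 60.02 to 24.5 and 24.8 CPM (-1.38 ± 0.32). Sox9 lost its call without E12.5 replicate 1 (0.061).

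In the retinoic acid pathway, the degrading enzymes moved in opposite directions. The CYP26 enzymes clear retinoic acid and keep the distal limb bud free of it. Cyp26b1 was at 441 and 364 CPM at E9.5 and 39.0 and 34.2 CPM at E12.5 (log2 fold change -3.46 ± 0.21, adjusted p = 2.8e-07). Cyp26a1 was at 7.60 and 6.03 CPM at E9.5 and 79.6 and 115 CPM at E12.5 (log2 fold change 3.84 ± 0.30, adjusted p = 1.6e-06). Cyp26c1 was at 1.05 and 0.241 CPM at E9.5 and 28.4 and 17.7 CPM at E12.5 (log2 fold change 5.31 ± 0.51, or 6.46 without E9.5 replicate 1 and 4.49 without E9.5 replicate 2, adjusted p = 1.5e-05). In mesoderm Cyp26b1 went the opposite way, with 29.7 and 23.3 CPM at E9.5 and 609.8 and 469 CPM at E12.5, a layer difference of -7.80 ± 0.31, adjusted p = 3.0e-08 on the log2 scale. Cyp26a1 was at 0.907 and 0.676 CPM at E9.5 and 0 and 0.122 CPM at E12.5 in mesoderm (layer difference 7.65 ± 0.92, adjusted p = 1.4e-04). Of the 18 pathway genes tested, 5 rose and 8 fell, with a median log2 fold change of -0.43. The receptor Rarb, itself a target of retinoic acid, fell from 13.7 and 14.7 to 0.961 and 1.19 CPM (-3.77 ± 0.43), and the binding protein Crabp2 from 184 and 168 to 17.8 and 11.2 CPM (-3.65 ± 0.30). The co-receptor Rxra rose from 90.8 and 81.7 to 289.9 and 203 CPM (1.49 ± 0.12). Aldh1a3, a synthesizing enzyme, was at 0 and 0.0603 CPM at E9.5 and 2.70 and 0.857 CPM at E12.5 (ratio of E12.5 to E9.5 CPM 50.7 with a 95 percent counting interval of 8.81 to 2029, or a ratio of 32.2 (5.61 to 1291) without E9.5 replicate 1, at least 6.14-fold without E9.5 replicate 2 and a ratio of 22.3 (3.36 to 949) without E12.5 replicate 1, adjusted p = 0.0030).

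Among genes of the early embryo, falls outnumbered rises. Lin28a and Lin28b encode RNA-binding proteins that block let-7 microRNA maturation and mark young tissue. Of the 21 genes tested, 2 rose and 10 fell (1 and 9 without E9.5 replicate 1, 1 and 8 without E9.5 replicate 2, 1 and 8 without E12.5 replicate 1), with a median log2 fold change of -0.93. Lin28a was at 369 and 461 CPM at E9.5 and 0.595 and 5.61 CPM at E12.5 (log2 fold change -7.26 ± 0.56, or -6.38 without E12.5 replicate 1 and -9.24 without E12.5 replicate 2, adjusted p = 1.4e-06), with means of 41.4 CPM at E10.5 and 14.4 CPM at E11.5 between. Lin28b was at 142 and 192 CPM at E9.5 and 5.31 and 11.6 CPM at E12.5 (log2 fold change -4.39 ± 0.38, adjusted p = 4.0e-06). The let-7 target Trim71 fell from 164 and 237 to 9.84 and 27.7 CPM (-3.55 ± 0.35). The stem cell factor Sall4 fell from 75.4 and 79.6 to 2.88 and 4.42 CPM (-4.44 ± 0.51). Hmga2, another let-7 target, was at 687 and 763 CPM at E9.5 and 776 and 1002 CPM at E12.5 and was not called in ectoderm (adjusted p = 0.26). Its log2 fold change in mesoderm was -2.65 ± 0.20, and the layers differed by 2.94 ± 0.27, adjusted p = 1.9e-05. The DNA methyltransferase Dnmt3a rose from 202 and 173 to 435 and 409 CPM (1.17 ± 0.12). Dnmt3b, named after its values were seen, fell from 178 and 179 to 35.7 and 47.2 CPM (-2.11 ± 0.15).

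Imprinted genes, many of which regulate fetal growth, were called lower in most of the members tested. Of the 28 genes tested, 2 rose and 21 fell (2 and 10 without the replicate block, 1 and 17 without E9.5 replicate 2, 1 and 21 without E12.5 replicate 2), with a median log2 fold change of -1.22. Peg10, a retrotransposon-derived gene, was at 1269.8 and 2409 CPM at E9.5 and 24.2 and 41.7 CPM at E12.5 (log2 fold change -5.79 ± 0.28, adjusted p = 9.6e-08). Mest was at 2359 and 2163 CPM at E9.5 and 314 and 296 CPM at E12.5 (log2 fold change -2.89 ± 0.13, adjusted p = 6.2e-08). Dlk1, a Notch-like membrane protein, fell from 133 and 91.5 to 3.34 and 6.27 CPM (-4.55 ± 0.35, or -3.94 without E12.5 replicate 1 and -5.23 without E12.5 replicate 2). H19, the member with the highest CPM, fell from 6849 and 9143 to 2339 and 3104 CPM (-1.554 ± 0.18). Gnas was at 1792 and 1571 CPM at E9.5 and 2119 and 1801 CPM at E12.5 and was not called (adjusted p = 0.11). Dcn, a connective tissue proteoglycan, rose from 0.527 and 0.302 to 25.2 and 10.7 CPM (5.34 ± 0.52). In mesoderm 17 of the 28 genes were called lower, where 3844 of all 15501 tested genes were.

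Cell division and glycolysis genes fell in many members, the division genes by small amounts. Of the 38 genes tested, 1 rose and 23 fell (1 and 8 without the replicate block, 2 and 19 without E12.5 replicate 2), with a median log2 fold change of -0.44. Ccne1, cyclin E1, fell from 92.2 and 97.4 to 36.2 and 35.0 CPM (log2 fold change -1.42 ± 0.12, adjusted p = 4.3e-06). Cdc6, a replication licensing factor, fell from 82.2 and 86.9 to 49.2 and 43.3 CPM (-0.87 ± 0.17) and Rrm2, a ribonucleotide reductase subunit, from 339.9 and 364 to 184 and 198 CPM (-0.88 ± 0.13). Mki67 (549 and 645 CPM at E9.5 and 341 and 622 CPM at E12.5) and Top2a (802 and 903 CPM at E9.5 and 693 and 754 CPM at E12.5) were not called, although Mki67 was called without E12.5 replicate 2 (adjusted p = 0.0095). The cell cycle inhibitor Cdkn2b was at 0 CPM in both libraries at E9.5 and 7.91 and 5.41 CPM at E12.5 (at least 59.8-fold higher, taken against a floor of 3 counts over the group, or at least 38.1-fold without E9.5 replicate 1 and at least 21.8-fold without E9.5 replicate 2, adjusted p = 1.3e-05). The imprinted inhibitor Cdkn1c fell from 519 and 250.3 to 163 and 109 CPM (-1.44 ± 0.19). Of the 26 glycolysis and hypoxia genes tested, 3 rose and 16 fell (2 and 8 without the replicate block), with a median log2 fold change of -0.82. Slc16a3, a lactate exporter, was at 344 and 232 CPM at E9.5 and 37.2 and 23.3 CPM at E12.5 (log2 fold change -3.26 ± 0.17, adjusted p = 1.2e-07). Ldha, lactate dehydrogenase A, was at 3135 and 2485 CPM at E9.5 and 951 and 612 CPM at E12.5 (log2 fold change -1.88 ± 0.12, adjusted p = 3.7e-07). The mitophagy receptor Bnip3 fell from 101.2 and 92.7 to 12.7 and 18.1 CPM (-2.66 ± 0.25). Ldhb, the B subunit, rose from 52.6 and 37.6 to 124 and 115 CPM (1.43 ± 0.12) and the glucose transporter Slc2a3 from 780.4 and 724 to 1535 and 1535 CPM (1.03 ± 0.19). For Ldha the log2 fold change in mesoderm was -1.86 ± 0.12, with a layer difference of -0.01 ± 0.16, adjusted p = 0.99. Cdkn1c lost its call without the replicate block (adjusted p = 0.099).

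Genes that respond to handling and stress were included because the tissue was treated with trypsin. Of the 25 response genes tested, 11 rose and 3 fell (6 and 1 without the replicate block), with a median log2 fold change of 0.35. Gadd45b, a stress-induced growth arrest gene, rose from 0.527 and 0.422 to 12.1 and 15.2 CPM (log2 fold change 4.90 ± 0.30, adjusted p = 2.6e-07). Of the inducible chaperones Hspa1a and Hspa1b, near-identical copies whose reads may be split, Hspa1a rose from 0.422 and 0.422 to 7.14 and 2.97 CPM (3.40 ± 0.43). Hspa1b rose from 0.527 and 1.39 to 13.6 and 5.94 CPM (3.07 ± 0.51, or 2.33 without E9.5 replicate 1 and 4.49 without E9.5 replicate 2). Hsp90aa1 fell from 1241 and 1178 to 602 and 522 CPM (-1.11 ± 0.14). Mesoderm, which went through the same steps, had log2 fold changes of -0.40 ± 0.42 in Hspa1a and -0.34 ± 0.51 in Hspa1b. The layers differed by 3.80 ± 0.61, adjusted p = 9.2e-04 and 3.41 ± 0.72, adjusted p = 0.0049. The part of tissue handling in the ectoderm changes was not tested.

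Set against the mesoderm of the same embryo batches, the ectoderm shared many of its changes. In mesoderm 7987 of the 15501 tested genes were called between E9.5 and E12.5, so that many genes of any set would be called there. Of the 5480 ectoderm genes, 3303 were called in mesoderm in the same direction, 390 in the opposite direction and 1787 were not called there. The embryo batch that an ectoderm and a mesoderm library share was not a term of any fit. A test of the layer difference, the ectoderm change minus the mesoderm change, called 3588 genes (23.1 percent), 1679 with the more positive change in ectoderm (10.8 percent) and 1909 with the more negative (12.3 percent). Without the replicate block it called 1282 (484 and 798), and 2136 without ectoderm E12.5 replicate 1.

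On the positive side the 8 genes with the largest difference were Snx31, Sh2d4a, Meis2, Cyp26a1, Irx4, Rhbdl3, Hoxc4 and Lax1. They reached the difference in unlike ways. Meis2, a proximal limb factor, was at 233 and 229.7 CPM at E9.5 and 156 and 154 CPM at E12.5 in ectoderm and at 239 and 279 CPM at E9.5 and 0.654 and 0.854 CPM at E12.5 in mesoderm, a difference of 7.85 ± 0.26, adjusted p = 7.0e-09. Irx4, an Iroquois homeobox factor, rose in ectoderm (5.49 and 8.39 CPM at E9.5 and 23.7 and 21.04 CPM at E12.5, log2 fold change 1.71 ± 0.38) against a mesoderm level of 0.287 and 0.307 CPM at E9.5 and 0 and 0 CPM at E12.5. Snx31, a sorting nexin, was at 0.211 and 0.181 CPM at E9.5 and 12.4 and 9.83 CPM at E12.5 in ectoderm (log2 fold change 5.84 ± 0.61), and at 0.239 and 0.553 CPM at E9.5 and 0 and 0.0610 CPM at E12.5 in mesoderm. For Snx31, Sh2d4a, Irx4, Cyp26a1, Hoxc4 and Lax1 the mesoderm held so few counts at E12.5 that the fitted size of the difference depends on the prior count and is no bound.

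On the negative side they were Mmp28, Foxj1, Cyp26b1, Bmp2, Tfap2b, Dgkk, Glis3 and Dlx6os1. Mmp28, a secreted metalloproteinase, fell in ectoderm (12.8 and 10.01 CPM at E9.5 and 0.457 and 0.0659 CPM at E12.5, log2 fold change -5.32 ± 0.44, or -7.08 without E12.5 replicate 1, adjusted p = 2.7e-06). Mesoderm was at 1.34 and 1.29 CPM at E9.5 and 15.7 and 14.3 CPM at E12.5, a difference of -8.84 ± 0.57, adjusted p = 1.6e-06. Bmp2 was at 34.1 and 23.5 CPM at E9.5 and 17.8 and 10.4 CPM at E12.5 in ectoderm and 1.19 and 1.97 CPM at E9.5 and 61.1 and 44.3 CPM at E12.5 in mesoderm (difference -6.09 ± 0.43, adjusted p = 2.6e-06). Dgkk, a diacylglycerol kinase, fell from 62.5 and 70.7 to 1.56 and 2.11 CPM (-5.19 ± 0.28) against 5.01 and 4.55 CPM at E9.5 and 6.36 and 11.8 CPM at E12.5 in mesoderm. Glis3, a Kruppel-like zinc finger factor, fell from 15.3 and 15.3 to 1.46 and 1.32 CPM (-3.44 ± 0.29) against 1.34 and 2.28 CPM at E9.5 and 11.2 and 8.90 CPM at E12.5. Tfap2b rose in both layers, in mesoderm from close to no counts (0.334 and 0.123 CPM at E9.5 and 336 and 263 CPM at E12.5). In mesoderm at E9.5 Foxj1 was at 0.143 and 0.123 CPM and Dlx6os1 at 0.0478 and 0 CPM. For Tfap2b, Foxj1 and Dlx6os1 the fitted size of the difference thus rests on few mesoderm counts and is no bound. For Meis2 the stage change in ectoderm, not the layer difference, lost its call without the replicate block (adjusted p = 0.052). It also did so without E9.5 replicate 1 (log2 fold change -0.51) and without E12.5 replicate 2 (-0.51). The stage change of Irx4 in ectoderm lost its call without E9.5 replicate 1 (log2 fold change 1.53) and without E12.5 replicate 1 (1.39). The layer differences of single genes were not followed through the alternatives.

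**Figure D4:**
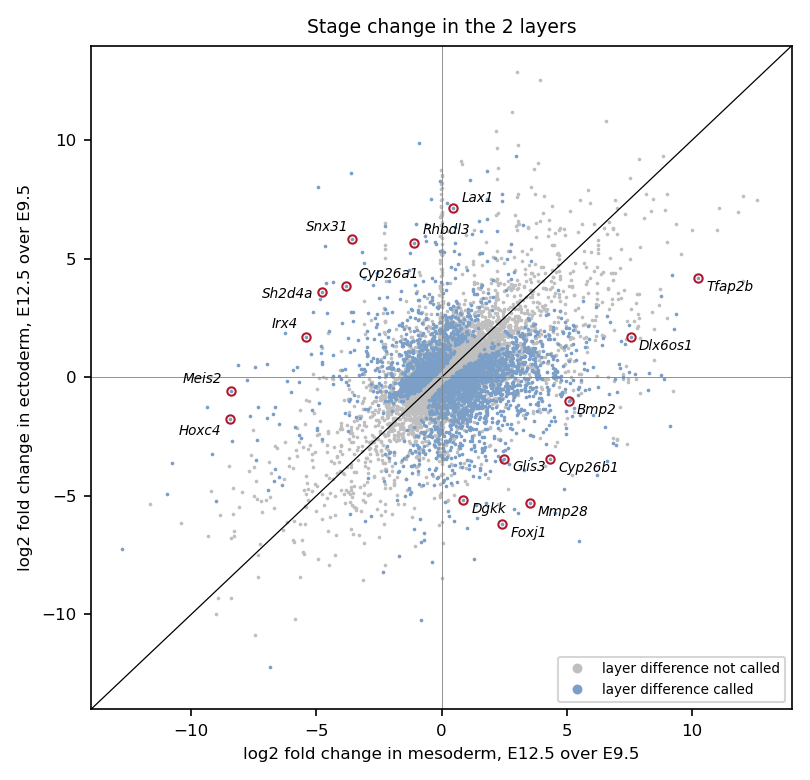
Log2 fold change from E9.5 to E12.5 of 15501 genes in mesoderm (horizontal axis) and ectoderm (vertical axis), with the diagonal of equal change. The 3588 genes whose layer difference was called are blue and the others grey. The 16 genes named for the layer difference are circled, and they lie far above the diagonal (Snx31 to Lax1) or below it (Mmp28 to Dlx6os1).

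Exon use changed in few genes. An exon bin is a stretch of exon between neighbouring transcript borders, and its use is its percent of all exon bin counts of the gene. Over 156025 bins of 12203 genes, the use of at least 1 bin differed between E12.5 and E9.5 in 53 genes (0.434 percent). The test was edgeR's diffSpliceDGE with Simes p-values adjusted over genes. Each adjusted p given below beside a bin or exon is that of its gene, and a lost call is that of the gene. Of the 53 genes, 31 were also called for their level, where 35.4 percent of the 15501 genes tested for level were. A link between exon use and level was not tested. Without the replicate block 4 genes were called, and 14 (without E9.5 replicate 1), 18 (without E9.5 replicate 2), 16 (without E12.5 replicate 1) or 21 (without E12.5 replicate 2) when 1 library was left out. In 7 of the 53 a bin moved by at least 10 percentage points in a gene with a mean of at least 50 counts per library, namely Zfp64, Dst, Ehbp1, Epb41l5, Camta1, Kdr and Ccnc.

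Zfp64, a zinc finger gene, was the gene with the smallest p. Its bin 1 (chr2:168893331-168894533, mm10, with GENCODE M21 borders) took 3.96 and 3.07 percent at E9.5 and 26.1 and 20.8 percent at E12.5 (adjusted p = 1.3e-13). It took 5.77 and 7.95 percent at E10.5 and 15.01 and 14.9 percent at E11.5, against 0.913 to 5.04 percent in the mesoderm libraries. It kept its call without the replicate block and in each fit that left out 1 ectoderm library of E9.5 or E12.5. Dst encodes dystonin, whose epithelial form BPAG1e is a plaque protein of hemidesmosomes. Bin 45 of Dst (chr1:34177796-34180498) took 5.07 and 3.90 percent at E9.5 and 22.6 and 15.5 percent at E12.5. Bin 46 (chr1:34181135-34183904) took 5.15 and 4.55 percent at E9.5 and 18.8 and 16.3 percent at E12.5. Bin 50 (chr1:34187972-34193263) went the other way with 2.58 and 4.21 percent at E9.5 and 0.220 and 0.807 percent at E12.5 (adjusted p = 5.2e-12 for the gene). In mesoderm bin 45 took 0.162 to 2.605 percent. The level of Dst rose as well, from 86.1 and 136 to 526 and 823 CPM (log2 fold change 2.604 ± 0.21, adjusted p = 2.0e-06), together with the hemidesmosome genes above. The use of bin 45 lost its call without the replicate block (adjusted p = 0.30).

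Ehbp1, an actin and endosome adaptor, used bin 1 (chr11:22005828-22006871) for 16.2 and 15.1 percent at E9.5 and 44.9 and 41.5 percent at E12.5 (adjusted p = 1.2e-07). The change lost its call without the replicate block (adjusted p = 0.86). In Epb41l5, a cytoskeletal protein of epithelia, bin 1 (chr1:119545037-119548130) took 23.5 and 26.3 percent at E9.5 and 9.25 and 10.3 percent at E12.5. Bin 12 (chr1:119595074-119596059) took 6.22 and 6.63 percent at E9.5 and 16.2 and 15.4 percent at E12.5 (adjusted p = 2.3e-05 for the gene). Bin 12 took 0 to 0.838 percent in mesoderm, and the change of bin 1 lost its call without the replicate block (adjusted p = 1) and without E12.5 replicate 1 (0.080). Camta1 bin 34 (20.1 and 14.4 percent at E9.5 and 6.51 and 3.98 percent at E12.5) and Ccnc bin 16 (11.1 and 15.3 percent at E9.5 and 26.7 and 28.5 percent at E12.5) lost their calls when any of the 4 libraries was left out, and without the replicate block. The Kdr call rested on few counts of an endothelial gene. Of the 70 tested entries of the lists of splicing regulators and of genes with layer-specific exons, 4 were called, namely Dst, Epb41l5, Actn4 and Elavl1. The Actn4 change (bin 20) lost its call without the replicate block (adjusted p = 1), without E9.5 replicate 1 (0.12) and without E12.5 replicate 1 (1). The Elavl1 change (bin 1) lost its call without the replicate block (adjusted p = 1), without any 1 of the 4 libraries (0.066 to 1), in the gene-level F test (adjusted p = 0.13) and in a fit of the 4 libraries alone (adjusted p = 0.16). Of the epithelial splicing regulators, Esrp1 was at 195 and 203 CPM at E9.5 and 305 and 318 CPM at E12.5 (log2 fold change 0.65 ± 0.23) and Esrp2 at 37.9 and 42.7 CPM at E9.5 and 111 and 116 CPM at E12.5 (log2 fold change 1.501 ± 0.18, adjusted p = 6.4e-05). Esrp1 lost its call without the replicate block (adjusted p = 0.29), without any 1 of the 4 libraries (0.13 to 0.22), under DESeq2 (adjusted p = 0.28) and with a block for each layer (adjusted p = 0.050).

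Among the called genes, 3 had a small exon (at most 50 bases) that lies wholly within the coding sequence and is a multiple of 3 long, so that its use leaves the reading frame as it is. They were chosen after their values were seen and are printed because the exon itself is the item that changed. Capitals mark the exon and lower case the 15 bases of the neighbouring exons on each side in the spliced transcript, from the GENCODE M21 transcript sequences.
Ptprf: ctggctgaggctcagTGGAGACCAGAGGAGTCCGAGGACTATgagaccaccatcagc
Mta1: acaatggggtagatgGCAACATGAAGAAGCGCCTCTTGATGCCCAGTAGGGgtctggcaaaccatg
Numa1: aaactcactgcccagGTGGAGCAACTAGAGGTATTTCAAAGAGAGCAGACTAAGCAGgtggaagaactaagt
The Ptprf exon (27 bases, chr4:118227819-118227845, minus strand) lies in a receptor tyrosine phosphatase of cell contacts. The Mta1 exon (36 bases, chr12:113133541-113133576, plus strand) lies in a subunit of the NuRD chromatin complex, and the Numa1 exon (42 bases, chr7:102002295-102002336, plus strand) in a spindle pole protein. The Ptprf exon took 0.0686 and 0.0897 percent at E9.5 and 0.320 and 0.479 percent at E12.5 (adjusted p = 1.5e-09 for the gene) and 0 to 0.0484 percent in mesoderm. These came from 14 of 20420 and 23 of 25630 counts at E9.5 and 214 of 66935 and 183 of 38169 counts at E12.5 in ectoderm. The Mta1 exon took 1.26 and 1.44 percent at E9.5 and 2.997 and 3.15 percent at E12.5 (adjusted p = 4.0e-04). The Numa1 exon took 0.882 and 0.737 percent at E9.5 and 1.74 and 1.63 percent at E12.5 (adjusted p = 0.035). In all 3 both libraries of E12.5 were above both of E9.5, which the choice from called bins made likely and which is no further support. The change in Ptprf lost its call in the gene-level F test (adjusted p = 0.26). The Ptprf change kept its call without the replicate block and in each fit that left out 1 of the 4 libraries. That in Mta1 lost its call without the replicate block (adjusted p = 1), without E9.5 replicate 1 (0.43), without E9.5 replicate 2 (0.072) and without E12.5 replicate 2 (0.11). That in Numa1 lost its call without the replicate block (adjusted p = 1), without any 1 of the 4 libraries (0.43 to 1) and in the gene-level F test (adjusted p = 1). In Dnmt3a, whose level rose, bin 52 at the 3′ end took 4.74 and 5.54 percent at E9.5 and 12.3 and 13.1 percent at E12.5. Bin 53 took 0.694 and 1.12 percent at E9.5 and 3.08 and 3.37 percent at E12.5 (adjusted p = 3.3e-10 for the gene). Dnmt3a was likewise chosen after its values were seen.

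**Figure D5:**
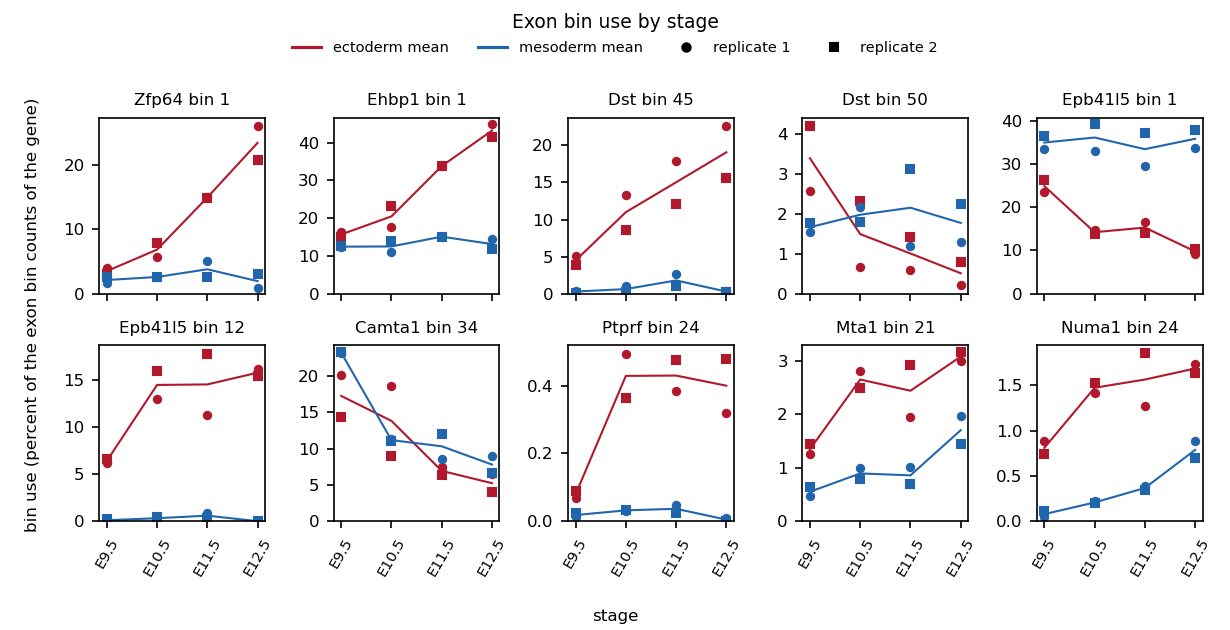
Use of 10 exon bins (percent of the exon bin counts of the gene) at each stage in ectoderm (red) and mesoderm (blue), with 1 point per library and a line through the group means, and with a vertical axis from 0 in each panel. Zfp64 bin 1 and Ehbp1 bin 1 climb in ectoderm, Epb41l5 bin 1 is lower and bin 12 higher at E10.5 than at E9.5 in ectoderm, and the small exons of Ptprf, Mta1 and Numa1 are used more after E9.5.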

How the data were processed

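Polyadenylated RNA of distal forelimb ectoderm and mesoderm was sequenced in 16 libraries. The submitters' processing notes name the mouse build mm10 and the tools bedtools 2.27.1, STAR 2.6.0c, Cufflinks 2.2.1 and cutadapt 1.16. The main values are counts per gene as deposited by the authors, whole numbers for 53800 Ensembl genes. The counter and its use of strand are not given in the sources used here. FPKM values deposited by the authors were used only to set levels of different genes side by side. Counts per exon bin, as deposited by the authors for each library, were used for exon use; reads outside every bin (2.17 to 6.67 percent) were left out. Bins were given coordinates by rebuilding them from GENCODE M21, where the number of bins and the gene borders matched in 50896 of 53413 genes.

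Gene counts were fitted with edgeR 4.0.16 in R 4.3.3 (TMM scaling, filterByExpr by group, quasi-likelihood F test) over all 16 libraries, with 1 mean per group and the replicate number as a block, and p-values were adjusted over all 15501 tested genes by the Benjamini-Hochberg method. Errors are standard errors of the log2 fold change. The fit shares 1 estimate of the spread, with 7 residual degrees of freedom. The replicate number marks the RNA kit per the labels' protocol. Deviations of same-numbered ectoderm libraries of E9.5 and E12.5 from their group means correlated with r = 0.633 across genes, and over all 28 pairs of groups with 0.491 to 0.760. With 2 libraries per group, p-values measure the spread pooled over the 8 groups after the shared replicate difference is taken out. They do not measure the spread of the ectoderm libraries of E9.5 and E12.5 alone. The test beyond 2-fold used glmTreat, exon use was tested with diffSpliceDGE, and both scripts were tested on simulated data. CPM used scaled library sizes. A group without counts was set at a floor of 3 counts, which is 0.115 CPM at E9.5 and 0.0810 CPM at E12.5, and ratios from 1 to 3 counts carry 95 percent intervals. Floors and intervals cover counting error only.

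Genes were named by a rule: the 12 largest rises and falls beyond 2-fold with at least 10 CPM in the higher group and no overlap between stages, the 8 largest layer differences in each direction, and from each of 37 gene lists the called members with the largest change (up to 4 in each direction) and the 3 with the highest CPM, or any member of lists of at most 12. For exon bins it took genes with a bin moved by at least 10 percentage points and called members of both splicing lists. The comparison, the lists and the rule were chosen with earlier results of these data known, and 42 genes stand in more than 1 list. Alternatives changed the block, the scaling, the filter, the libraries and the tool (DESeq2 1.42.0). Some genes of these lists are not reported here.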

Additional observations from a re-analysis of the deposited data

Results flagged for a closer look

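The stage change (E12.5 against E9.5) differed between ectoderm and mesoderm by the test of the difference itself (edgeR's quasi-likelihood test of the interaction, adjusted over 15501 genes) in 3588 genes. The 16 named genes are listed here by that difference, the ectoderm change minus the mesoderm change on the log2 scale. It was more positive in ectoderm for Snx31 (9.40), Sh2d4a (8.39), Meis2 (7.85), Cyp26a1 (7.65), Irx4 (7.14), Rhbdl3 (6.76), Hoxc4 (6.72) and Lax1 (6.69). It was more negative for Mmp28 (-8.84), Foxj1 (-8.61), Cyp26b1 (-7.80), Bmp2 (-6.09), Tfap2b (-6.08), Dgkk (-6.05), Glis3 (-5.94) and Dlx6os1 (-5.87). For the genes said above to have few mesoderm counts at 1 stage, these sizes are no bounds. Sh2d4a was at 0.949 and 1.03 CPM at E9.5 and 13.5 and 10.9 CPM at E12.5 in ectoderm and 0.239 and 0.123 CPM at E9.5 and 0 and 0 CPM at E12.5 in mesoderm, and Rhbdl3 at 0.633 and 0.241 CPM at E9.5 and 20.8 and 19.8 CPM at E12.5 and 1.10 and 0.861 CPM at E9.5 and 0.349 and 0.610 CPM at E12.5. Dlx6os1 overlaps Dlx6 on the other strand and was at 4.01 and 3.26 CPM at E9.5 and 9.01 and 14.6 CPM at E12.5 in ectoderm and 0.0478 and 0 CPM at E9.5 and 7.19 and 5.31 CPM at E12.5 in mesoderm. Dlx6 moved alongside it in mesoderm, with 13.3 and 15.3 CPM at E9.5 and 11.4 and 19.5 CPM at E12.5 in ectoderm and 0 and 0.123 CPM at E9.5 and 25.3 and 27.9 CPM at E12.5 in mesoderm, and reads of the pair cannot be told apart without strand.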

How the results depend on the processing

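Without the replicate block the fit called 2495 genes (1410 higher and 1085 lower), the layer difference 1282 (484 more positive and 798 more negative in ectoderm), and exon use 4 genes; the test beyond 2-fold called 873 (511 and 362). Without ectoderm E11.5 replicate 1, of a stage outside the comparison, it called 5661 (2962 higher and 2699 lower) and 1374 beyond 2-fold (795 and 579). Leaving out 1 ectoderm library of E9.5 or E12.5 gave 3273 to 3776 genes (1762 to 2022 higher and 1511 to 1943 lower), 782 to 987 beyond 2-fold (437 to 598 higher and 285 to 392 lower), and 14 to 21 genes with a change in exon use. For the layer difference, leaving out 1 library of either layer gave 2136 to 3120 genes (953 to 1461 more positive and 1183 to 1659 more negative). Under a separate block for each layer, RLE size factors, no filter, a filter at 1 CPM, only ectoderm libraries, only the 4 libraries and DESeq2, the counts of genes called stayed within 1.5 times of those reported (5121 to 5636 for the stage change and 3532 to 3838 for the layer difference). Of the 177 genes named in the text that were called, 142 were called under every alternative in which they were tested. The call was lost in 24 without the replicate block and in 28 when 1 library was left out. Some genes with low counts were not tested under the filter at 1 CPM. Among called genes named in the text, 0 changed direction under any alternative run. Depth limits the low end: at E9.5 a gene without counts may still have reached 0.115 CPM.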

Other observations

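Genes of antigen presentation and the interferon response, which the report does not treat, were at low levels and went both ways. Over all tested genes 35.4 percent were called (17.8 percent higher and 17.5 percent lower). Of the 17 genes tested, 7 rose and 3 fell (3 and 2 without the replicate block, 3 and 2 without E9.5 replicate 1, 2 and 2 without E9.5 replicate 2, 4 and 2 without E12.5 replicate 1, 3 and 2 without E12.5 replicate 2), with a median log2 fold change of 0.81. Ifitm1 rose from 3.06 and 2.29 to 24.2 and 14.2 CPM (2.82 ± 0.34), while its relative Ifitm3 fell from 83.9 and 73.4 to 36.9 and 23.7 CPM (-1.42 ± 0.19) and the class I heavy chain H2-K1 from 18.8 and 19.5 to 7.78 and 5.61 CPM (-1.54 ± 0.18). Ifitm3 went the other way in mesoderm (log2 fold change 1.21 ± 0.20), a layer difference of -2.63 ± 0.28, adjusted p = 5.7e-05.

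Among neural crest, glia and melanoblast markers, Sox10, the neural crest factor, fell from 3.59 and 3.68 to 0.0457 and 0 CPM (ratio of E9.5 to E12.5 CPM 135 with a 95 percent counting interval of 23.6 to 5387, or at least 18.4-fold without E12.5 replicate 1 and a ratio of 79.7 (13.96 to 3181) without E12.5 replicate 2, adjusted p = 2.7e-04), and Mitf from 2.53 and 3.32 to 0.869 and 0.659 CPM (-1.86 ± 0.40), whereas Dct, an enzyme of melanin synthesis, rose from 0.527 and 0.121 to 13.1 and 8.24 CPM (log2 fold change 5.18 ± 0.55, or 6.03 without E9.5 replicate 1, adjusted p = 2.1e-05). Sox10 was higher at E12.5 in mesoderm (0 and 0.0615 CPM at E9.5 and 2.22 and 0.854 CPM at E12.5). Of 40 splicing regulators tested, 6 rose and 8 fell, and 2 and 3 without the replicate block, where 35.4 percent of all genes were called. When 1 library was left out, 3 rose and 5 fell without E9.5 replicate 1, 3 rose and 2 fell without E9.5 replicate 2, 3 rose and 1 fell without E12.5 replicate 1, and 4 and 5 without E12.5 replicate 2. Khdrbs3 fell from 155 and 121 to 51.5 and 46.1 CPM (log2 fold change -1.49 ± 0.16, adjusted p = 2.8e-05).

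Some transcripts followed the replicate number at each stage. Meg3, a noncoding RNA, was at 8.02 and 39.7 CPM at E9.5 and 0.778 and 20.5 CPM at E12.5 in ectoderm, and Kcnq1ot1 at 1.48 and 8.75 CPM at E9.5 and 2.15 and 14.9 CPM at E12.5, with replicate 2 above replicate 1 at both stages. Meg3 and Kcnq1ot1 were chosen after their values were seen. Of the cartilage markers, which summed to 2053 and 1539 CPM at E9.5 and 859 and 837 CPM at E12.5 in ectoderm, Col2a1 fell from 1529 and 989.8 to 476 and 463 CPM (log2 fold change -1.36 ± 0.28, adjusted p = 0.0025) in ectoderm, and its mesoderm was at 54.9 and 34.1 CPM at E9.5 and 549.7 and 273 CPM at E12.5. Col2a1 lost its call without the replicate block (adjusted p = 0.083).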
